A study of Homo sapiens with 18 samples.

Results

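The 6 genes described here are very long human genes, several of them within well-known common fragile sites: FHIT, WWOX, MACROD2, LRP1B, CSMD1 and PTPRD. They were chosen by name and position, as 6 of 1431 regions that were tested for topoisomerase II peaks. The other regions were tiles of 2 Mb over the rest of the genome. Together the 6 genes span 10.93 Mb, which is 0.36% of the 3035.4 Mb of sequence used here (chromosomes 1 to 22 and X).

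DNA topoisomerase II cuts both strands of one DNA duplex, passes another duplex through the gap and reseals the cut. TOP2A is the form that dividing cells rely on, and TOP2B is also present in cells that do not divide. Etoposide and mitoxantrone are topoisomerase II poisons, drugs that hold the enzyme on the cut DNA. Common fragile sites are regions where chromosomes tend to break when DNA replication is slowed. Many of them contain very long genes, whose transcription takes many hours, and such genes are often deleted in cancers.

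The cells were KG-1, an established human acute myeloid leukaemia line. Chromatin was crosslinked with 1% formaldehyde for 10 min and precipitated with 5 µg of a TOP2A antibody or 4 µg of a TOP2B antibody, and 3 precipitations were pooled for each library. The etoposide experiment has 8 libraries: TOP2A and TOP2B, each with 2 replicates of cells given methanol, the vehicle, for 1 h and 2 replicates of cells given 100 µM etoposide for 1 h. The mitoxantrone experiment has 4 libraries, 1 for each antibody from untreated cells and 1 from cells given 0.5 µM mitoxantrone for 1 h. A further 6 input samples were not analysed here. All groups come from this 1 line, and nothing in the labels says that replicates came from separate cultures. P-values therefore measure only the spread between these libraries, which may be technical.

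The gene windows are on hg19, the build of the lists. FHIT lies at chr3:59735036-61237133 (1.5 Mb) and WWOX at chr16:78133327-79246564 (1.11 Mb). MACROD2 lies at chr20:13976146-16033842 (2.06 Mb) and LRP1B at chr2:140988996-142889270 (1.9 Mb). CSMD1 lies at chr8:2792875-4852328 (2.06 Mb) and PTPRD at chr9:8314246-10612723 (2.3 Mb). All 6 were found in RefSeq on GRCh38.p14, where their lengths differ from the hg19 windows by at most 2078 bp. Exons and introns were not assigned, since no hg19 annotation was used here.

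For each library the authors deposited a list of MACS peaks and a list of SISSRS sites, and a peak was counted in a gene when its midpoint fell there. The lists of the etoposide experiment held 35932 to 294749 MACS peaks, so densities were read against the mean of each library's own list. That measure, written here as times the genome mean, is 1 when a gene holds as many peaks per Mb as the whole list. The TOP2A etoposide libraries differed most in list length within a group, with 35932 peaks in replicate 1 and 192989 in replicate 2. Replicates seldom shared positions: 1.07% to 3.44% of the shorter list of a group overlapped a peak of the other replicate. Within the 6 genes the shares were 0.778% to 2.62%, with 14 of 722 TOP2A vehicle peaks, 2 of 124 TOP2A etoposide peaks, 9 of 344 TOP2B vehicle peaks and 2 of 257 TOP2B etoposide peaks. Single positions thus carried little repeated signal. How much of each list is background was not measured here, so a density describes the listed peaks, and a value near the mean does not show how much enzyme was bound.

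Peaks within 1 kb of the 5′ starts of these genes were looked up, and the 3 genes with RefSeq promoters that had them in 2 libraries are shown by sequence. The starts of FHIT and CSMD1 had a peak as close in 1 library each. The 3′ ends had them in 3 libraries for FHIT and PTPRD, 2 for LRP1B and CSMD1 and 1 for WWOX and MACROD2. Peaks were thus no more frequent at the starts than at the 3′ ends. Positions away from the gene ends were not counted, so the peaks at the starts are not shown to be an enrichment. At the WWOX start the TOP2A etoposide replicate 2 list held a peak across the start itself (chr16:78133277-78133402), and the TOP2B vehicle replicate 2 list held one at 424 bp. At the MACROD2 start, peaks lay at 707 bp in TOP2A vehicle replicate 1 and at 819 bp in TOP2A etoposide replicate 1. At the 5′ side of PTPRD, which is read from the minus strand, peaks lay at 106 bp in TOP2A etoposide replicate 2 and at 678 bp in TOP2A vehicle replicate 1. None of these was found in both replicates of a group. The RefSeq promoters, 300 bases each that end shortly after the start, are printed 5′ to 3′ from GRCh38.p14, with each GC box (GGGCGG or CCGCCC, the core of the motif that SP1 binds) in capitals. The WWOX window is chr16:78099404-78099703 on the plus strand, the MACROD2 window chr20:13995266-13995565 on the plus strand and the PTPRD window chr9:10612953-10613252 on the minus strand. Peak positions on hg19 were not placed on these letters.
WWOX: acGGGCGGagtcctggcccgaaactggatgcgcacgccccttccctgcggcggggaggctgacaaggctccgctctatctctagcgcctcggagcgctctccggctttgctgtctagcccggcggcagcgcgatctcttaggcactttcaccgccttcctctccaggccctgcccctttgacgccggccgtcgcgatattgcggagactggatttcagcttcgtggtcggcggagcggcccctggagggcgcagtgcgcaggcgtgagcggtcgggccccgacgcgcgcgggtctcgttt
MACROD2: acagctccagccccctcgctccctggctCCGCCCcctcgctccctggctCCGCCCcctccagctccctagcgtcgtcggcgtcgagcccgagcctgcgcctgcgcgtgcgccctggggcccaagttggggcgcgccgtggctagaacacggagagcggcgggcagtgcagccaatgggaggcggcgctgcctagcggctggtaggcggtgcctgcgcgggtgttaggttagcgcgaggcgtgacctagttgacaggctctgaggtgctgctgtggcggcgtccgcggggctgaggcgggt
PTPRD: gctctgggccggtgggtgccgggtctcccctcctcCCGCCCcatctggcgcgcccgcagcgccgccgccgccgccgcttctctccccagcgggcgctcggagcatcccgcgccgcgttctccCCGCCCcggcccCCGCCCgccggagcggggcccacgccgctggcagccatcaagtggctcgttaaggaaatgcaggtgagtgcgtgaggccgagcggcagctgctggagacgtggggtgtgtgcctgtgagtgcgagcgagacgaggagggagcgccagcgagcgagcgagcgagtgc

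These 3 promoters at the gene starts are rich in G and C, with 69% for WWOX, 73.3% for MACROD2 and 75.3% for PTPRD, against a median of 58.7% over 35116 RefSeq promoters. WWOX holds 1 GC box, MACROD2 2 and PTPRD 3. The promoter at the FHIT start, not printed above, has 55% G and C, below that median, and 2 GC boxes. Over all RefSeq promoters 44.95% hold at least 1, and a match is only a match of letters. Promoters further inside FHIT, MACROD2 and PTPRD have fewer G and C than those at the starts. They hold 44% and 0 GC boxes in FHIT, 43% and 0 in MACROD2, and 45.3% with 1 box and 41.7% with 0 in PTPRD. The RefSeq table used here gave promoters for 4 of the 6 genes.

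Over the 8 libraries of the etoposide experiment, the 6 genes held listed MACS peaks at about the mean density of each list. Their summed density was 0.934, 0.979, 0.958 and 0.932 times the genome mean for TOP2A (vehicle replicates 1 and 2, then etoposide replicates 1 and 2). For TOP2B it was 0.833, 0.994, 1.02 and 0.905 times. The summed density was thus below the mean in 7 libraries and above it only in TOP2B etoposide replicate 1. With SISSRS sites it was above the mean in TOP2A etoposide replicate 1 (1.01 times) and below it in TOP2B etoposide replicate 1 (0.942 times). The 2 Mb tiles had medians of 1.01 to 1.05 times the mean in the same libraries. Every gene in every one of these libraries had a density that exceeded between 13.75% and 83.51% of the tiles.

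**Figure D1:**
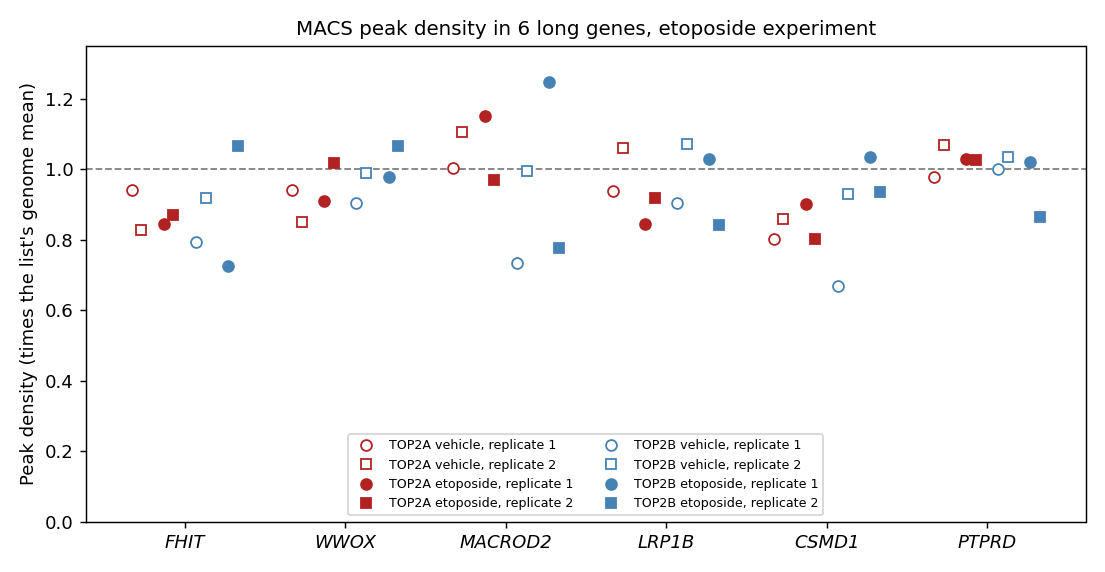
MACS peak density in each gene as a multiple of the genome mean of the same list (vertical axis), for the 8 libraries of the etoposide experiment, 1 point per library. Open points are vehicle and filled points etoposide. All points lie between 0.668 and 1.25, on both sides of the dashed line at 1 for every gene.

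By the median over the 8 libraries, the order from low to high was FHIT at 0.856 times the genome mean, CSMD1 at 0.881, LRP1B at 0.928, WWOX at 0.959, MACROD2 at 1.00 and PTPRD at 1.02. The SD over the 8 libraries was 0.062 (PTPRD) to 0.176 (MACROD2), and no 2 neighbours in this order differed by more than it. With SISSRS sites the lowest median was that of CSMD1 (0.837 times), followed by FHIT (0.905 times). Even the ends of the order overlapped, with 0.724 to 1.07 times for FHIT and 0.864 to 1.07 times for PTPRD.

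Among the genes for enzymes, FHIT encodes a hydrolase of diadenosine polyphosphates and is a tumour suppressor at one of the most breakage-prone human sites. Its body held 100 and 101 TOP2A peaks with the vehicle and 15 and 83 with etoposide (replicates 1 and 2). Against each list these were 0.942 and 0.826 times the genome mean, then 0.844 and 0.869 times. TOP2B peaks numbered 45 and 134 with the vehicle (0.793 and 0.919 times) and 25 and 54 with etoposide (0.724 and 1.07 times). FHIT was below the genome mean in 7 of 8 libraries, the exception being TOP2B etoposide replicate 2, and in 6 of 8 with SISSRS sites. The 2 TOP2B etoposide libraries were the lowest and the highest of the 8, so that group spanned all the others.

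WWOX encodes an oxidoreductase with WW domains and is also a fragile-site tumour suppressor. It held 74 and 77 TOP2A peaks with the vehicle (0.940 and 0.850 times the genome mean) and 12 and 72 with etoposide (0.911 and 1.02 times). TOP2B peaks numbered 38 and 107 with the vehicle (0.904 and 0.990 times) and 25 and 40 with etoposide (0.977 and 1.07 times). For each antibody the vehicle and etoposide ranges overlapped.

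MACROD2 encodes a hydrolase that removes ADP-ribose from proteins, and its introns are a common place of deletions in tumours. It held 146 and 185 TOP2A peaks with the vehicle (1.00 and 1.11 times the genome mean) and 28 and 127 with etoposide (1.15 and 0.971 times). TOP2B peaks numbered 57 and 199 with the vehicle (0.733 and 0.996 times) and 59 and 54 with etoposide (1.25 and 0.778 times). MACROD2 was the most variable of the 6 genes. Its TOP2B replicates differed more from each other than its groups did.

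Among the genes for membrane proteins, LRP1B encodes a large receptor of the LDL receptor family. It held 126 and 164 TOP2A peaks with the vehicle (0.938 and 1.06 times) and 19 and 111 with etoposide (0.845 and 0.919 times). TOP2B peaks numbered 65 and 198 with the vehicle (0.905 and 1.07 times) and 45 and 54 with etoposide (1.03 and 0.842 times). For TOP2A both etoposide libraries lay below both vehicle libraries, but with SISSRS sites etoposide replicate 1 was the highest of the 4, at 1.22 times. For TOP2B the groups overlapped.

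PTPRD encodes a receptor tyrosine phosphatase that also acts in cell adhesion at synapses. It held 159 and 200 TOP2A peaks with the vehicle (0.978 and 1.07 times) and 28 and 150 with etoposide (1.03 and 1.03 times). TOP2B peaks numbered 87 and 231 with the vehicle (1.00 and 1.04 times) and 54 and 67 with etoposide (1.02 and 0.864 times). It was the least variable gene, above the genome mean in 6 of 8 libraries, and in 5 of 8 with SISSRS sites.

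CSMD1 encodes a large membrane protein with CUB and sushi domains that limits complement. It held 117 and 144 TOP2A peaks with the vehicle (0.804 and 0.859 times) and 22 and 105 with etoposide (0.902 and 0.802 times). TOP2B peaks numbered 52 and 186 with the vehicle (0.668 and 0.930 times) and 49 and 65 with etoposide (1.03 and 0.935 times). For TOP2B both etoposide libraries lay above both vehicle libraries, though replicate 2 of each group differed by only 0.930 against 0.935 times, and with peaks of a score of at least 100 the groups overlapped. CSMD1 is the one gene of the 6 whose chromosome departs far from the genome: chromosome 8 carried 2.05 to 2.16 times the genome mean in these 8 libraries. CSMD1 itself held 0.326 to 0.479 times the mean of its chromosome. Its flanks of 2 Mb held 150 and 141 peaks in TOP2A vehicle replicate 1, a library whose genome mean was 70.7 peaks per Mb, so the excess of that chromosome was not seen around this gene. The other 5 genes lie on chromosomes at 0.872 to 1.08 times the genome mean.

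Whether etoposide changed the density was tested with limma for each antibody, over the 6 genes and all tiles, on the log2 scale of peaks per 10000 peaks of the list and per Mb (pseudocount 0.5 peaks). No gene of the 6 passed a Benjamini-Hochberg adjusted p of 0.05 for TOP2A or TOP2B, and none had an unadjusted p under 0.05. This equals the background, since 0 of 1431 regions were called for TOP2A (0%) and 0 of 1430 for TOP2B (0%), where 55 and 59 regions had an unadjusted p under 0.05. The largest TOP2A difference was in LRP1B, with a log2 ratio of -0.16 (95% interval -0.52 to 0.20, limma adjusted p = 0.941). CSMD1 was at 0.05 (interval -0.46 to 0.56) and MACROD2 at 0.02 (interval -0.33 to 0.36). For TOP2B the largest was in CSMD1, at 0.32 (interval -0.09 to 0.74, limma adjusted p = 0.954), followed by MACROD2 at 0.21 (interval -0.31 to 0.73), and LRP1B was at -0.07 (interval -0.45 to 0.30).

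FHIT gave log2 ratios of -0.02 for TOP2A (interval -0.47 to 0.43) and 0.05 for TOP2B (interval -0.39 to 0.49). WWOX gave 0.13 and 0.12, and PTPRD 0.02 and -0.11. The median over the 6 genes was 0.02 for TOP2A and 0.09 for TOP2B, beside medians of 0.01 and 0.01 over all regions tested. The median size of a difference over all regions, whatever its sign, was 0.14 for TOP2A and 0.12 for TOP2B. The intervals of the 6 genes leave room for differences of up to about 0.56 (TOP2A, CSMD1) and 0.74 (TOP2B, CSMD1) on this scale. The interaction of drug and antibody, which tests whether the etoposide change differed between the enzymes, called 0 of the 6 genes and 0 of 1431 regions (0%). Its largest value was 0.28 for CSMD1 (limma adjusted p = 0.984).

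**Figure D2:**
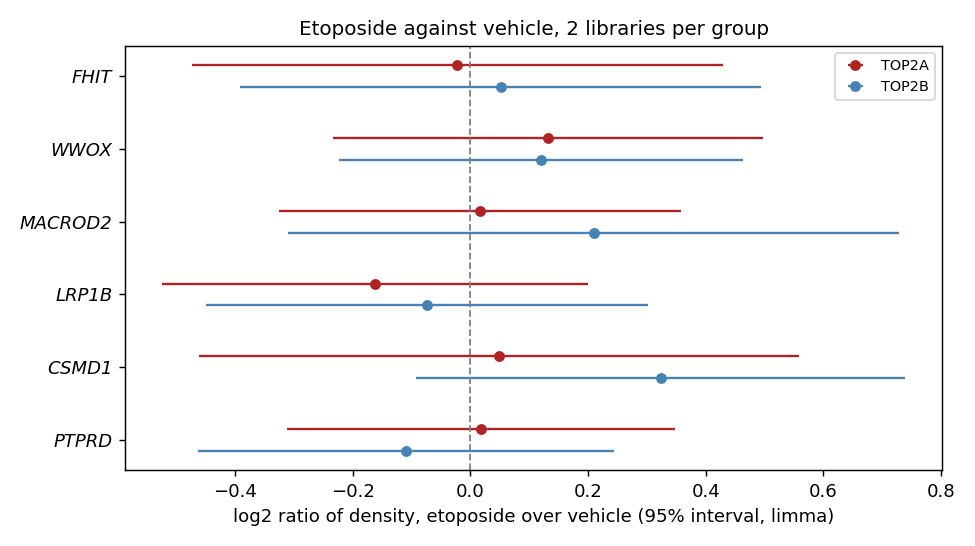
Change of peak density with etoposide in each gene (horizontal axis, log2 ratio of etoposide over vehicle) with its limma 95% interval, for TOP2A and TOP2B, 2 libraries per group. Every interval includes 0, and the point farthest from 0 is CSMD1 for TOP2B at 0.32.

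The 2 enzymes were then compared with each other under the same treatment. With the vehicle, none of the 6 genes passed the limma test of TOP2B against TOP2A (0 of 1431 regions called, 0%, with 44 at an unadjusted p under 0.05). The farthest from 0 was MACROD2, lower for TOP2B with a log2 ratio of -0.30 (interval -0.60 to 0.00, limma adjusted p = 0.9995). The other 5 genes lay between -0.07 (CSMD1) and 0.08 (WWOX). With etoposide, 0 of the 6 genes and 0 of 1429 regions were called (0%, with 53 at an unadjusted p under 0.05). The ratios ran from -0.13 for PTPRD to 0.20 for CSMD1 (interval -0.26 to 0.66), and MACROD2 was at -0.10 (interval -0.57 to 0.36). These comparisons reuse the libraries of the etoposide comparisons.

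Each gene body was set against the 2 Mb on either side, which share its chromosome. FHIT held fewer MACS peaks per Mb than its flanks in all 8 libraries, at 0.605 to 0.959 times (median 0.824), as did CSMD1 at 0.716 to 0.946 times (median 0.855) and LRP1B at 0.769 to 0.977 times (median 0.903). WWOX was below its flanks in 6 of 8 libraries (median 0.947). MACROD2 was below in 4 of 8 (median 1.02) and PTPRD in 3 of 8 (median 1.01). How many tiles were below their own flanks in all 8 libraries was not counted. Such agreement between libraries is therefore not shown to be particular to these genes. SISSRS sites kept the medians of FHIT (0.847), CSMD1 (0.858) and LRP1B (0.907) below 1, but not every library. With them FHIT reached 1.14 times its flanks in TOP2A etoposide replicate 1 and CSMD1 1.00 times in TOP2B etoposide replicate 1, and LRP1B was above its flanks in 2 libraries (up to 1.03 times). With peaks of a score of at least 100, each of these 3 genes was above its flanks in 1 library, at 1.01, 1.17 and 1.33 times for FHIT, CSMD1 and LRP1B. By the medians the genes ran from FHIT, lowest against its surroundings, to MACROD2 and PTPRD, level with theirs, and the difference between genes was not tested.

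In limma, with treatment as a term, FHIT had a log2 ratio of body over flanks of -0.26 for TOP2A (interval -0.55 to 0.02, unadjusted p = 0.0677, adjusted p = 0.494). For TOP2B it was -0.34 (interval -0.65 to -0.04, unadjusted p = 0.0327, adjusted p = 0.264). CSMD1 gave -0.26 and -0.22, LRP1B -0.21 and -0.11, WWOX -0.12 and -0.06, MACROD2 0.05 and -0.07, and PTPRD 0.08 and -0.02 (TOP2A, then TOP2B). None of the 6 genes passed the adjusted threshold for either enzyme, and only FHIT for TOP2B had an unadjusted limma p under 0.05. So did 223 of all 1389 regions for TOP2B, and 140 of 1390 for TOP2A, so FHIT does not stand out from this background. Over all regions 45 of 1390 were called for TOP2A (3.24% of regions, with 1.01% of regions called lower in the body). For TOP2B 70 of 1389 were called (5.04% of regions, with 1.3% of regions called lower). The median of the 6 genes was -0.16 for TOP2A and -0.09 for TOP2B, against 0.00 and 0.00 over all regions.

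The calls for FHIT and LRP1B depended on 1 library per enzyme. Without TOP2A etoposide replicate 2, FHIT (log2 ratio -0.26, limma adjusted p = 0.0338) and LRP1B (-0.24, adjusted p = 0.0424) were called lower than their flanks. In that fit 501 regions were called (36% of regions, with 17.9% of regions called lower in the body). Both genes were called lower, so the background to set beside 2 of 6 genes is 17.9%. Whether 2 of 6 exceeds that share was not tested. Without TOP2B etoposide replicate 2, FHIT was called lower (-0.50, limma adjusted p = 0.000351). There 191 regions were called (13.8% of regions, with 6.34% of regions called lower). No other gene was called in any setting of the 6 tests.

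**Figure D3:**
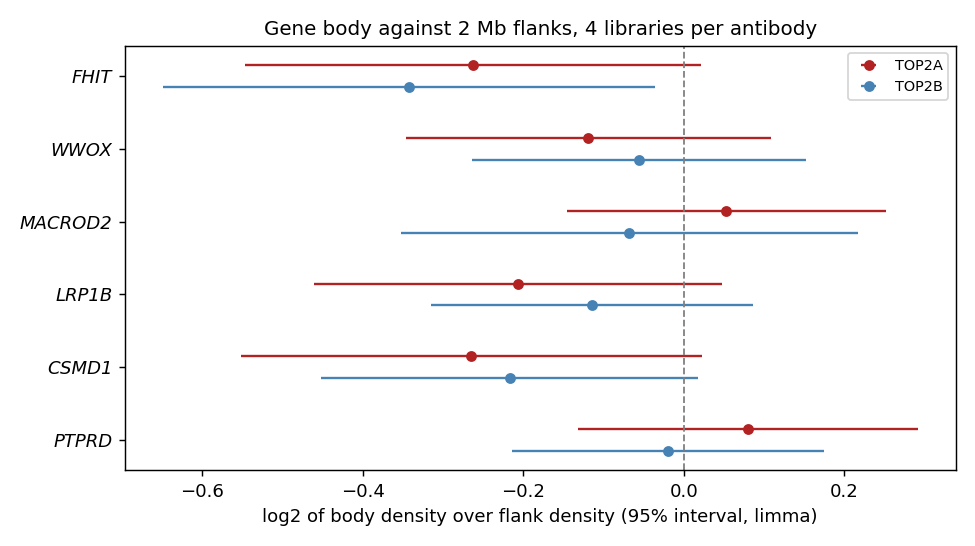
Gene body density against the density of the 2 Mb on each side (horizontal axis, log2 ratio) with the limma 95% interval, for TOP2A and TOP2B over 4 libraries each. For TOP2A, FHIT and CSMD1 lie farthest to the left, both at -0.26. For TOP2B, FHIT does at -0.34, and only that interval does not reach 0.

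Along the genes, peaks of the 8 libraries were counted in bins of about 100 kb. No bin of any of the 6 genes was without a peak, while 4% of the 2 Mb tiles had at least 1 such bin. The bins held 27 to 47 peaks in FHIT (median 36), 34 to 48 in WWOX (40), 29 to 50 in MACROD2 (41), 28 to 54 in LRP1B (41), 28 to 47 in CSMD1 (36) and 33 to 54 in PTPRD (43). The variance of the bins over their mean was 0.378 (WWOX) to 1.25 (LRP1B), beside a median of 1.17 over the tiles. The longest stretch without a peak was 12617 bp in PTPRD to 17416 bp in CSMD1, beside a tile median of 17344 bp. In tumour genomes the centres of FHIT, WWOX and MACROD2 are common sites of internal deletions, and no stretch of these genes lacked peaks on the scale of a bin here.

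The emptiest bin of FHIT lay at chr3:60335875-60436014 with 27 peaks, and its fullest, with 47, at chr3:61136994-61237133, the 5′ end of the gene. Cut into 3 equal parts, FHIT held 194, 169 and 194 peaks in order of coordinate. In LRP1B the fullest bin was chr2:141689097-141789111 with 54 peaks and the emptiest chr2:141289039-141389053 with 28. In PTPRD the fullest bin, with 54 peaks, was chr9:8713981-8813914 and the emptiest, with 33, chr9:10412856-10512789. In MACROD2 the bins chr20:15739886-15837871 and chr20:15935857-16033842, the last of the gene, tied as the fullest with 50, and the emptiest was chr20:14956002-15053986 with 29. For WWOX the fullest and emptiest were chr16:78436937-78538140 with 48 and chr16:78942955-79044157 with 34. For CSMD1 they were chr8:3773567-3871636 with 47 and chr8:4263914-4361982 with 28. These bins were picked as extremes of each gene and carry no test.

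**Figure D4:**
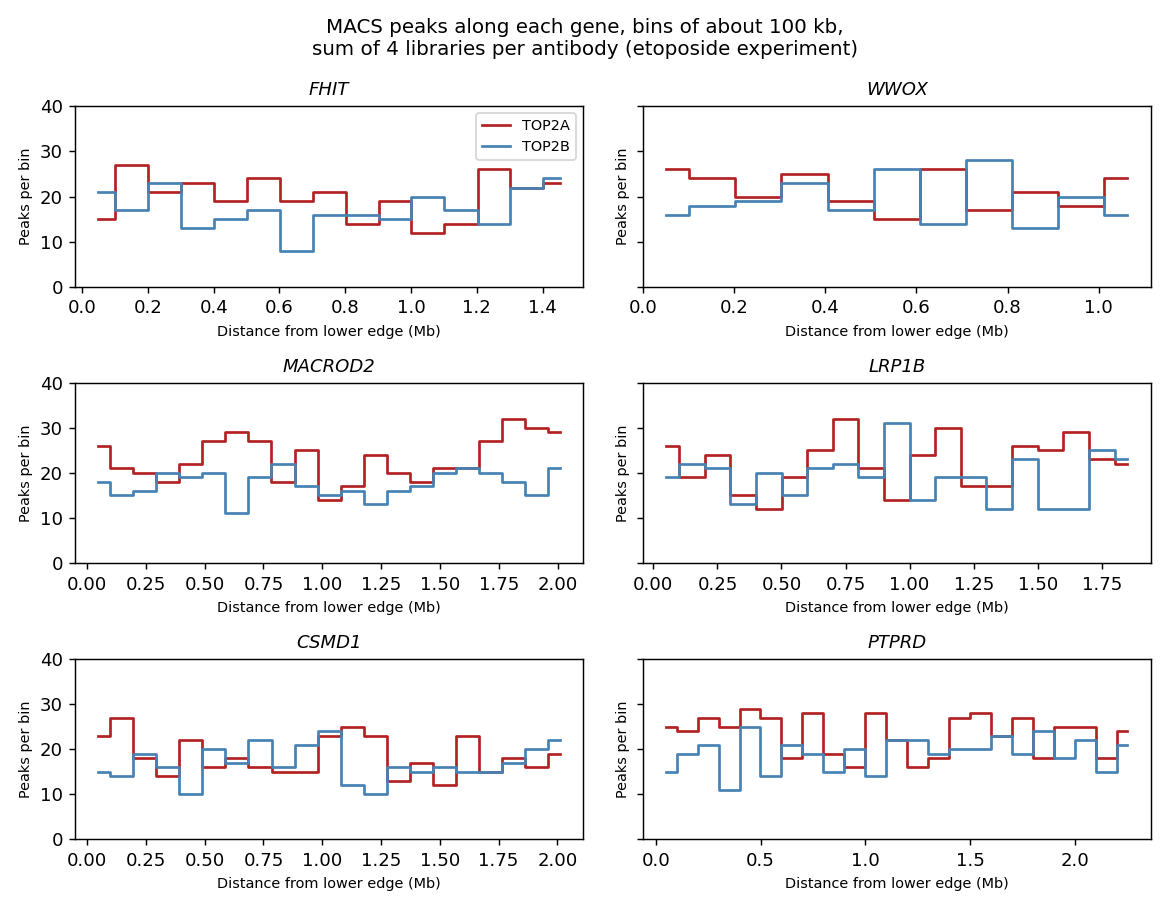
MACS peaks per bin of about 100 kb along each gene (vertical axis) against the distance from its lower genome edge in Mb (horizontal axis), summed over the 4 TOP2A and the 4 TOP2B libraries of the etoposide experiment. No bin is without peaks, and the highest bins, of LRP1B and PTPRD, hold 54 peaks over both enzymes.

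Overlapping peaks of all 12 libraries merged into 4572 positions in the 6 genes, of which 6.78% held a peak in 2 or more libraries and 0.612% in 3 or more. The tiles gave 8.29% and 0.922%. By gene the share in 2 or more libraries was 5.47% (CSMD1), 5.56% (MACROD2), 5.97% (FHIT), 6.49% (WWOX), 7.68% (LRP1B) and 8.71% (PTPRD). Only 1 position reached 4 libraries, at chr20:14216713-14217407 in MACROD2, 240.6 kb from the start of the gene. Its peaks came from TOP2A vehicle replicate 1, TOP2A etoposide replicate 2, TOP2B etoposide replicate 2 and TOP2A untreated, so no group had it in both replicates. A position at the 3′ end of PTPRD, chr9:8314393-8315001, held peaks in 3 libraries (TOP2A etoposide replicate 2, TOP2B vehicle replicate 2 and TOP2A untreated). Only FHIT had a position of 3 libraries that included mitoxantrone, at chr3:61131923-61132917 (TOP2A vehicle replicate 1, TOP2A untreated and TOP2A mitoxantrone).

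Peaks inside the genes had the form of the lists they came from. Their median width equalled that of the whole list in each of the 8 libraries, 98 to 128 bp. A SISSRS site lay in 94.9% to 100% of them, against 95.3% to 99.7% of the whole lists. The median peak of the genes stood between percentile 45.9 (TOP2B etoposide replicate 1) and percentile 61.4 (TOP2A vehicle replicate 2) of its list by the authors' score.

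In the mitoxantrone experiment there was 1 library per group, so no test was possible and intervals cover counting error only. Peaks there were wider, with list medians of 462 to 1126 bp, and lists were shorter under the drug. Without drug the TOP2A list held 500 peaks in the 6 genes, 1.27 times the genome mean (exact Poisson 95% interval 1.16 to 1.39), beside a tile median of 1.12. Summed over the 6 genes, bodies and flanks were level by MACS peaks, with a ratio of 1.02 (interval 0.912 to 1.13). With SISSRS sites this ratio was 0.985 (interval 0.865 to 1.12), and at a score of at least 100 it was 1.32 (interval 1.045 to 1.66). Against the genome mean, the SISSRS sites of the same library gave 0.899 times. Peaks with a score of at least 100 gave 1.68 times, so the direction depended on the caller. Against the mean of each gene's own chromosome the value was 1.17 times.

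In that library PTPRD had the highest density of the 6 genes, with 143 peaks, 1.73 times the genome mean (interval 1.46 to 2.03). This was above 99.23% of the tiles. Its flanks held 73 and 113 peaks, so the body was 1.34 times its flanks (interval 1.07 to 1.67). SISSRS sites gave 1.24 times the genome mean (100 sites) and peaks with a score of at least 100 gave 2.75 times (42 peaks). These were above 88.84% and 100% of the tiles. Against its flanks the body was at 1.25 times with SISSRS sites (interval 0.958 to 1.63). At a score of at least 100 it was at 1.46 times (interval 0.946 to 2.25), and both intervals include equal density. In the 8 libraries of the etoposide experiment PTPRD reached at most 1.07 times by MACS peaks, 1.13 times by SISSRS sites and 1.19 times by peaks with a score of at least 100. LRP1B followed with 90 peaks (1.31 times), then MACROD2 with 88 (1.19 times), CSMD1 with 85 (1.15 times) and FHIT with 60 (1.11 times). WWOX was the only gene below the mean by MACS peaks, with 34 (0.847 times, interval 0.587 to 1.18). By SISSRS sites 4 genes were below it: WWOX at 0.485 times, CSMD1 at 0.772, MACROD2 at 0.800 and FHIT at 0.851, while LRP1B was at 1.02.

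With mitoxantrone the TOP2A list held 7584 peaks, of which 19 fell in the 6 genes, 0.696 times the genome mean (interval 0.419 to 1.09). LRP1B held 10 of these 19, 2.11 times the genome mean (interval 1.01 to 3.87), and SISSRS sites gave 2.14 times from 5 sites (interval 0.696 to 5). Against its share of the untreated list LRP1B was at 1.60 (interval 0.744 to 3.09), which includes equal shares. CSMD1 held 0, where its share of the untreated list gave an expectation of 5.89 and the interval of the share ratio reached 0.64. The 5th percentile of the tiles was also 0 in this list. Share ratios of tiles were not computed, so low ratios are not shown to be particular to these genes. PTPRD held 2, against an expectation of 9.91, a share ratio of 0.202 (interval 0.0242 to 0.742). With SISSRS sites both intervals include equal shares, with a ratio of 0 for CSMD1 (up to 1.95) and 0.287 for PTPRD (up to 1.64). FHIT and WWOX held 2 each and MACROD2 held 3, with intervals that include equal shares. The MACROD2 share ratio turned from 0.492 with MACS peaks to 1.98 with SISSRS sites (interval 0.521 to 5.34). No peak of this list in the genes had a score of 100 or more. Summed over the 6 genes, bodies were at 0.515 times their flanks by MACS peaks (interval 0.295 to 0.857). With SISSRS sites they were at 1.01 times (interval 0.445 to 2.13).

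TOP2B lists of this experiment were too short to compare single genes. The untreated TOP2B list put 36 of 9259 peaks in the 6 genes, 1.08 times the genome mean (interval 0.756 to 1.5). MACROD2 held 10, CSMD1 and PTPRD 7 each, LRP1B 6, FHIT 5 and WWOX 1. SISSRS sites of that library gave 0.263 times from 10 sites, where the tile median was 0.432. With mitoxantrone the list of 702 TOP2B peaks put 1 in FHIT and 0 in the other 5 genes, where each interval reached at least 6.94 times the genome mean. Lower density with the drug was not detectable in this library.

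**Figure D5:**
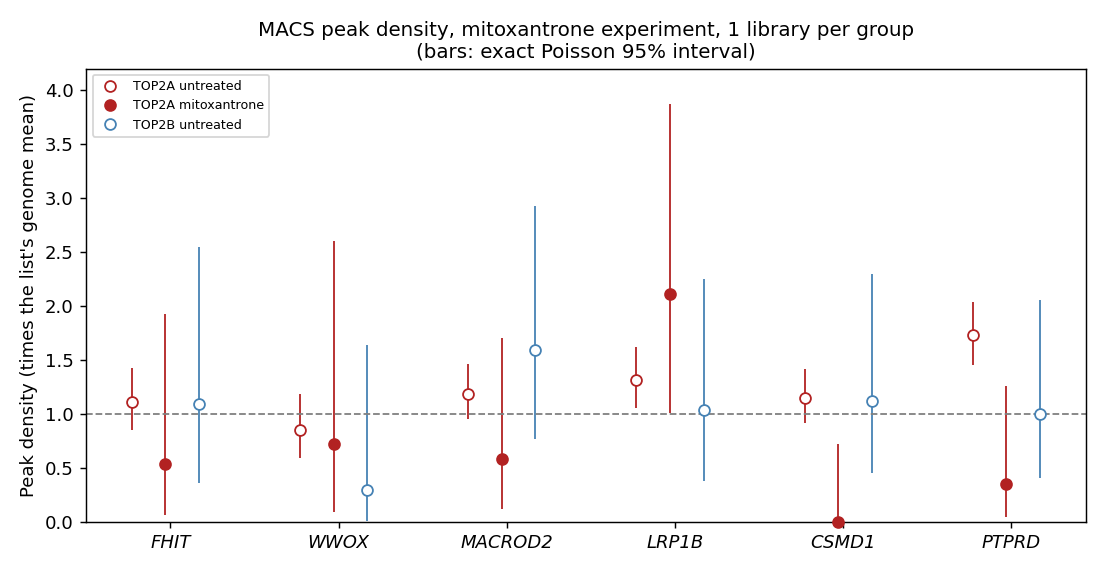
MACS peak density in each gene as a multiple of the genome mean of the list (vertical axis) in 3 libraries of the mitoxantrone experiment, with exact Poisson 95% intervals, 1 library per group. PTPRD in TOP2A untreated stands at 1.73, LRP1B with mitoxantrone at 2.11 and CSMD1 with mitoxantrone at 0. TOP2B with mitoxantrone, with 1 peak in all, is not drawn.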

How the data were processed

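Per the submitters' processing notes, hg19 was the build, and MACS 1.4, Bowtie2 2.2.5 and bedtools 2.26.0 were among the tools. Depth is unknown: no source used here gives read totals, caller settings or any use of the input. The authors deposited 1 MACS list per library, with a score per peak of at least 50 that served only to rank or filter within a list. The authors also deposited SISSRS lists with a tag count, fold enrichment and p-value for each site, columns read from their values since no header names them, and only the positions were used.

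Peaks and sites on chromosomes 1 to 22 and X were counted by midpoint. Chromosome length was the largest end in any list. Densities were expressed on the log2 scale, as peaks per Mb in a list scaled to 10000 peaks (pseudocount 0.5). Regions with a mean of at least 5 peaks (the 6 genes, and 2 Mb tiles that overlap none of them) were tested with limma 3.58.1 (trend, robust) in R 4.3.3, two-sided, with Benjamini-Hochberg adjustment over all regions at 0.05. Body and flanks were compared over 4 libraries per antibody with treatment as a term. Intervals on counts, also as multiples of the genome mean, are exact Poisson intervals at 95%. Intervals on ratios of 2 counts (body over flanks and share ratios) are exact binomial intervals at 95%, given the sum of both counts. Neither kind holds spread between libraries. Counting used Python 3.11.15 with pandas 2.3.3, numpy 2.4.6 and scipy 1.17.1, and plots matplotlib 3.10.9. The fits were also run on simulated counts, with a fixed spread between libraries for densities and counting error alone for body and flanks. The spread in the real lists may differ, and no result here rests on that run.

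Alternatives were SISSRS sites, a score of at least 100, a pseudocount of 2, tiles of 1 Mb, no filter, bases covered, other flanks, list totals without chromosomes 5 and 8, 1 fit of 8 libraries, the replicate number as a block, each replicate left out and bins of 50 kb. The genes and these lists were chosen with earlier results of these data known. All 6 genes are named in each comparison, and 1 further gene of the planned list is not reported here. In each gene the fullest and emptiest bin and positions with peaks in the most libraries could be named; the other positions of 3 libraries, and the peaks near gene starts, were chosen after their values were seen.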

Additional observations from a re-analysis of the deposited data

How the results depend on the processing

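The number of the 6 genes called was 0 in each of the 6 limma tests and stayed 0 under all alternatives but those that leave out a replicate, where it ranged from 0 to 2 for TOP2A body against flanks and from 0 to 1 for TOP2B. The replicate block called 0 of the 6 genes in each test. For pairing, the deviations of same-numbered libraries from their group means were correlated over regions, not the densities themselves. These deviations correlated at 0.06 to 0.22 in 2 of the 4 density comparisons and at 0.01 for the enzymes with etoposide. For TOP2B etoposide against vehicle the value was -0.16, and there a crossed replicate block, added after seeing the data, also called 0 genes. With 2 pairs the numbers were not taken to pair the libraries. Of 486 recomputed log2 values of single genes, 433 kept their sign and side of the threshold, 3 passed it and 50 changed sign, none of these past the threshold. The cause of these changes was not tested.

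For TOP2A etoposide against vehicle, the sign changed with SISSRS sites in FHIT (0.14), WWOX (-0.11), MACROD2 (-0.023), LRP1B (0.082) and CSMD1 (-0.065), and in FHIT also with scores from 100 up (0.15) and a pseudocount of 2 (0.036). For TOP2B the sign changed in FHIT (-0.011) and WWOX (-0.088) with SISSRS sites and in LRP1B with scores from 100 up (0.058). For TOP2B against TOP2A with the vehicle it changed with SISSRS sites in FHIT (0.033) and PTPRD (0.035), and in LRP1B with scores from 100 up (0.016). With etoposide it changed with SISSRS sites in FHIT (-0.12) and LRP1B (-0.15) and in WWOX with scores from 100 up (-0.023). For TOP2A body against flanks the right flank alone changed MACROD2 (-0.012). For TOP2B a score of at least 100 changed WWOX (0.047) and LRP1B (0.0023), flanks of 1 Mb changed MACROD2 (0.038) and PTPRD (0.029), and the right flank alone changed PTPRD (0.072).

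Leaving out each replicate in turn also changed signs, with these ranges of the log2 ratio. For TOP2A etoposide against vehicle they were -0.12 to 0.072 in FHIT, -0.12 to 0.15 in MACROD2, -0.050 to 0.15 in CSMD1 and -0.046 to 0.082 in PTPRD. For TOP2B they were -0.22 to 0.32 in FHIT, -0.13 to 0.55 in MACROD2, -0.22 to 0.072 in LRP1B and -0.23 to 0.013 in PTPRD. For TOP2B against TOP2A with the vehicle they were -0.14 to 0.057 in FHIT, -0.13 to 0.10 in LRP1B, -0.31 to 0.16 in CSMD1 and -0.068 to 0.059 in PTPRD. With etoposide they were -0.24 to 0.30 in FHIT, -0.44 to 0.24 in MACROD2 and -0.074 to 0.22 in LRP1B. Body against flanks gave -0.0038 to 0.16 in PTPRD for TOP2A, and for TOP2B -0.13 to 0.022 in WWOX, -0.22 to 0.086 in MACROD2 and -0.064 to 0.025 in PTPRD. An arm left with 1 library was assumed to vary like the other.

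The number of regions called moved by more than 1.5 times. For body against flanks it was 45 for TOP2A (20 to 501 over the alternatives) and 70 for TOP2B (31 to 194). For the density comparisons it was 0, but 231 for TOP2A etoposide against vehicle without etoposide replicate 2 and 4 there with the replicate block. For TOP2B against TOP2A it was 2 with the replicate block and 1 with no filter under the vehicle, and 7 with etoposide without TOP2B etoposide replicate 2.

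In the mitoxantrone experiment the summed density left its counting interval with SISSRS sites in TOP2A untreated (0.899 times the genome mean) and TOP2B untreated (0.263). At a score of at least 100 it was 1.68 in TOP2A untreated and 4.18 in TOP2B untreated, the latter from only 2 peaks (interval 0.506 to 15.1). It was 0 in both mitoxantrone libraries. At that score their whole lists held only 118 (TOP2A) and 11 (TOP2B) peaks, too few to show a lower density in the genes. Bins of 50 kb and SISSRS sites also left no bin of the genes empty. Read totals are unknown, so what sequencing depth limits cannot be stated, and single genes with 0 to 10 peaks have wide counting intervals.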
